A study of Rattus norvegicus with 30 samples.

Results

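The genes that copy the genome and mark S phase were followed in rat inner medullary collecting duct cells, grown in primary culture and kept at, or moved between, different osmolalities. The set was given as 58 gene symbols, chosen by function. Of these, 51 were measured, each by its single-symbol probe set of highest mean over all arrays, out of 14506 measured genes. Mcm3, Mcm4, Dbf4, Pole2, E2f2, Chaf1a and Blm had no such probe set in the annotation used here. All 51 genes had their highest group mean in cells returned from 900 to 300 mosmol/kg for 24 h, and most were lowest in cells challenged with a higher osmolality.

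As background, the origin recognition complex, Cdc6 and Cdt1 load the MCM helicase onto origins in G1, and the helicase is then completed by Cdc45 and the GINS complex and switched on by kinases. Primase and the polymerases copy the strands while PCNA, its clamp loader RFC and the single-strand binding protein RPA hold the fork together, and nucleotide-making enzymes supply the building blocks. Many of these genes are transcribed in a wave before S phase by E2F factors, which cyclin E and its kinase help to release. In cultured mouse cells of the inner medulla, a sudden rise in osmolality is known to slow DNA synthesis and arrest the cell cycle, while the cells of the intact inner medulla divide little.

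The samples fall into 10 groups of 3 arrays. The first consists of cells grown at 900 mosmol/kg and then returned to 300 for 24 h (returned cells). For 4 groups, cultures from 300 mosmol/kg had been exposed to 600 mosmol/kg during 3, 12, 24 or 48 h, and for 2 more, cultures from 600 mosmol/kg had been exposed to 900 during 12 or 24 h. The remaining 3 groups were cultured at 300, 600 or 900 mosmol/kg throughout (steady 300, steady 600 and steady 900). The treatment field of every sample, the steady ones included, names 5 µM cyclosporin A, a calcineurin inhibitor, while no title mentions it. The labels therefore do not settle which cultures received it. They also do not say whether replicates are separate cultures or separate animals, and each p-value reflects only how far these samples scatter, and that scatter may be technical. Neither strain, age nor sex of the rats is given in the sources used here.

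All values are log2 expression values as the authors deposited them, and 1 unit of difference is a doubling. Array medians lay between 5.63 and 5.76, correlations within a group between 0.991 and 0.998, and for 30 of the 30 arrays the most similar array belonged to the same group. The epithelial markers Cdh1, Epcam and Krt8 had group means of at least 10.16, 11.54 and 10.92 in all 10 groups. Aqp2, the vasopressin-regulated water channel that defines principal cells, averaged 7.99 in returned cells, against 12.04 in steady 900, and 10.07 in steady 600, against 5.61 in steady 300. With 600 mosmol/kg it averaged 6.08 at 3 h, 5.87 at 12 h, 5.89 at 24 h and 7.06 at 48 h, so this defining marker was low in the groups that began at 300 mosmol/kg. These are bulk samples, in which fewer cells of a type and less RNA per cell cannot be told apart.

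Promoter sequence was available from RefSeq (build GRCr8) for 43 of the 51 genes, as windows from 250 bases before to 50 bases after the start. The letters TTTCCCGC, TTTCGCGC, TTTGCCGC and TTTGGCGC, forms of the E2F motif, were searched on both strands. At least 1 of them lay in the windows of 17 of the 43 genes (39.5%), against 3.08% of the 11968 genes on the array with a window and 2.25% of all 27457 windows. Among 34 windows of replication genes outside the set, 15 held them (44.1%), and among 17 of mitosis genes 1 (5.88%). The CHR letters TTTGAA were found in 6.98% of the set's windows, 23.5% of those of the other replication genes, 64.7% of the mitosis windows and 15.2% of the array windows. CCAAT was found in 60.5%, 44.1%, 76.5% and 38.3% of them. A match describes letters only and is not evidence of a bound site. The 250 bases upstream of the start are shown for 3 genes that carry the letters and lay among the largest changes, Mcm5 (chr19:13488563-13488812, plus strand), Mcm6 (chr13:42404353-42404602, minus strand) and Tyms (chr9:120776084-120776333, minus strand). Pola2 (chr1:212680543-212680792, minus strand), which rose at 24 h of both upward steps, is shown as a gene without the letters. Gins3 and Rpa2 carry the letters and rose at 12 h of 900 mosmol/kg, so the genes shown do not stand for the set. Rrm2, Cdc6, Ccne2 and E2f1, which also changed strongly, had no window. Capitals mark the E2F letters, and each sequence reads 5′ to 3′ on the gene's own strand.
Mcm5: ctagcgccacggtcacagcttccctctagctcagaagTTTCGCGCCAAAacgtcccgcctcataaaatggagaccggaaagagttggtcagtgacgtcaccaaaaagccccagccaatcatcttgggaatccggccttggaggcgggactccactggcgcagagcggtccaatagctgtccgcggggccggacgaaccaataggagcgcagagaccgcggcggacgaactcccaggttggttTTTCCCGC
Mcm6: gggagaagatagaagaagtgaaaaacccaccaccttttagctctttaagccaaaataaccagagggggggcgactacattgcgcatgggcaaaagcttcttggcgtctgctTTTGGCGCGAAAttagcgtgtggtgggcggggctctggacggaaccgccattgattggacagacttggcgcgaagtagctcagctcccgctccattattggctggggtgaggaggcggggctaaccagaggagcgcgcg
Tyms: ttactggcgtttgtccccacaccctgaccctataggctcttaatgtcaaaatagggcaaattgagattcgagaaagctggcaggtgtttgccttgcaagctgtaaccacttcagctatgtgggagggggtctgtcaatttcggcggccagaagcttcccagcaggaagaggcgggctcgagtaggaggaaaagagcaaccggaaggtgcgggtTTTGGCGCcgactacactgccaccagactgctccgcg
Pola2: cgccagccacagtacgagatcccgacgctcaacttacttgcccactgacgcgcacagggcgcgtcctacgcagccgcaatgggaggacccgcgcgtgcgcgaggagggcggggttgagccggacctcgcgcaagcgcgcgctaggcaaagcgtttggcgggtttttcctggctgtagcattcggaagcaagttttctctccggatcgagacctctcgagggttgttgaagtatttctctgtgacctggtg
Counted from the start, the Mcm5 window holds TTTCGCGC at −213 to −206 and, overlapping it on the other strand, TTTGGCGC at −209 to −202, with TTTCCCGC at −8 to −1. Mcm6 holds TTTGGCGC at −139 to −132, overlapped on the other strand by TTTCGCGC at −135 to −128. Tyms holds TTTGGCGC at −37 to −30, and the Pola2 window holds none of these letters. The median log2 change of the 17 genes with the letters was 0.72 in returned cells relative to steady 900, against 0.82 for the 26 without. It was −0.42, against −0.32, at 48 h of 600 mosmol/kg relative to steady 300, and 0.39, against 0.18, at 12 h relative to 3 h. These differences were not tested, and the ranges of both sets overlapped in each comparison.

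Averaged over the 51 genes, the level was 8.24 in returned cells (array means 8.22 to 8.27), against 7.45 in steady 900 (7.39 to 7.5). It was 6.70 in steady 300 and, with 600 mosmol/kg, 6.48 at 3 h, 6.70 at 12 h, 6.38 at 24 h and 6.26 at 48 h. It was 6.83 in steady 600 and, with 900 mosmol/kg, 6.44 at 12 h and 6.45 at 24 h. The array means of the returned cells lay above those of every other group, and those at 24 and 48 h of 600 mosmol/kg below those of steady 300. By limma's moderated F test over the 10 groups, all 51 genes differed (adjusted p under 0.05), as did 73.7% of all genes. The lowest group mean fell at 48 h of 600 mosmol/kg for 19 genes, at 3 h for 12, and at 12 or 24 h of 900 mosmol/kg for 8 each. The difference between a gene's highest and lowest group mean ran from 0.71 for Rpa3, the smallest RPA subunit, to 4.65 for Rrm2, the S phase subunit of ribonucleotide reductase. Orc1, Mcm8, Gins1 and Exo1 were dim, with means below the 30th percentile of all genes.

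**Figure D1:**
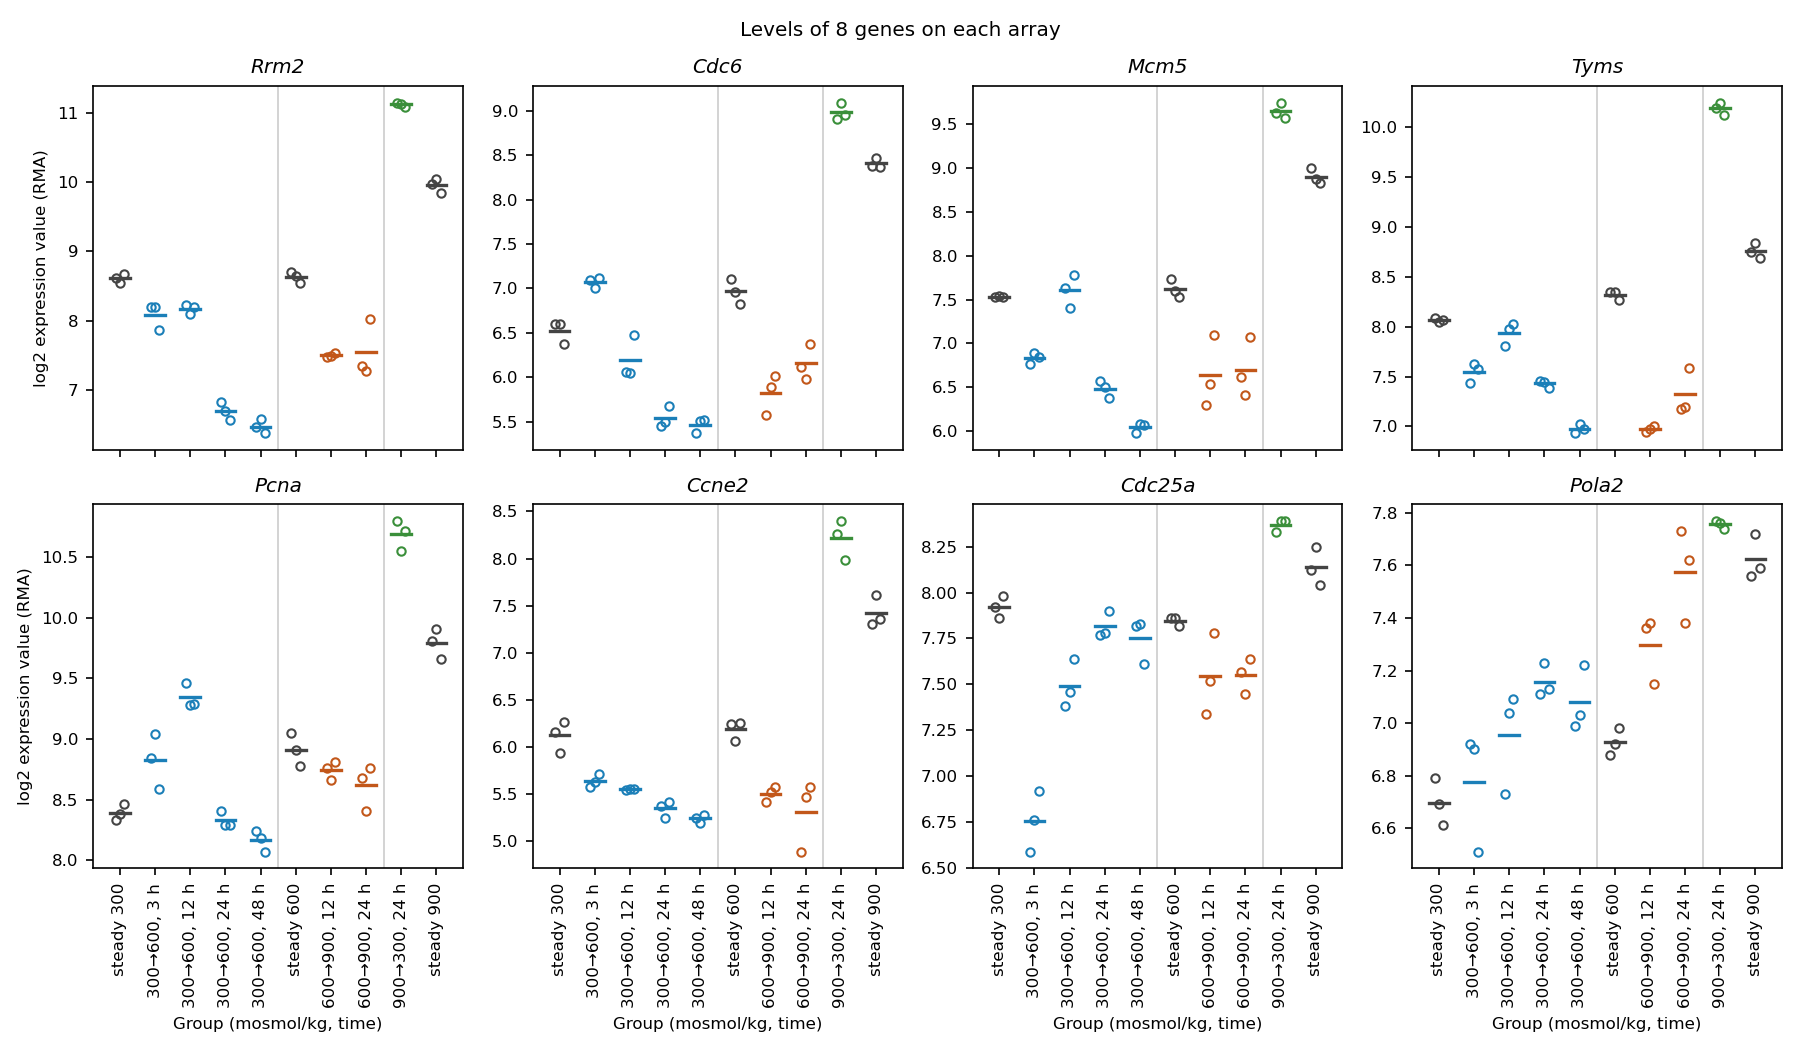
Log2 expression values (vertical axis) of 8 genes on each of the 30 arrays, by group (horizontal axis, osmolality in mosmol/kg and time). Points are arrays and bars are group means of 3 arrays. Rrm2 fell to a mean of 6.47 at 48 h of 600 mosmol/kg, against 8.61 in steady 300, while Cdc25a was lowest at 3 h. Within the time course from 300 to 600 mosmol/kg, Cdc6 peaked at 3 h and Pcna at 12 h. Over all groups both were highest in returned cells (8.99 and 10.69).

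Origin licensing genes set where replication can begin. Cdc6, the ATPase that helps to load the MCM helicase, rose within 3 h of the challenge with 600 mosmol/kg and then fell below its starting level. Cdc6 read 8.91, 9.09 and 8.95 on the 3 returned arrays, against 8.38, 8.47 and 8.37 in steady 900. Cdc6 had log2 values of 6.60, 6.60 and 6.38 in steady 300 and, with 600 mosmol/kg, 7.09, 7.01 and 7.12 at 3 h, 6.06, 6.05 and 6.48 at 12 h, 5.45, 5.5 and 5.68 at 24 h and 5.37, 5.51 and 5.52 at 48 h. Cdc6 measured 7.11, 6.96 and 6.83 in steady 600 and, with 900 mosmol/kg, 5.58, 5.89 and 6.02 at 12 h and 6.12, 5.98 and 6.38 at 24 h. All returned arrays lay above steady 900, and the 3 h arrays lay above steady 300, while those at 24 and 48 h lay below it and those at 12 h overlapped it. Cdc6 rose by 0.54 ± 0.12 (SE) at 3 h (adjusted p = 4.62e-04) and fell by 0.98 ± 0.12 at 24 h (adjusted p = 1.44e-07), and it fell by 1.14 ± 0.12 at 12 h of 900 mosmol/kg. Cdt1 stood at 8.20, 8.25 and 7.93 on the 3 returned arrays, against 7.52, 7.32 and 7.27 in steady 900. Cdt1 read 6.42, 6.39 and 6.42 in steady 300 and, with 600 mosmol/kg, 6.22, 6.67 and 6.72 at 3 h, 6.44, 6.45 and 6.48 at 12 h, 6.13, 5.86 and 6.16 at 24 h and 5.7, 5.77 and 5.84 at 48 h. Cdt1 had log2 values of 6.78, 6.34 and 6.58 in steady 600 and, with 900 mosmol/kg, 6.30, 6.32 and 6.19 at 12 h and 6.07, 6.24 and 6.33 at 24 h. Cdt1, the partner of Cdc6 in loading, lay above steady 900 on every returned array (change 0.76 ± 0.12) and below steady 300 on every array at 24 and 48 h. It fell by 0.64 ± 0.12 at 48 h (adjusted p = 1.28e-04), while its changes at 3 h (0.13) and 12 h (0.05) did not pass.

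Geminin, encoded by Gmnn, blocks Cdt1 once S phase has begun, and its level, like that of Cdt1, rose in returned cells and fell at 48 h of 600 mosmol/kg. Gmnn measured 9.03, 9.08 and 8.97 on the 3 returned arrays, against 8.14, 8.15 and 7.97 in steady 900. Gmnn stood at 7.04, 7.22 and 7.21 in steady 300 and, with 600 mosmol/kg, 6.96, 7.15 and 6.59 at 3 h, 7.11, 6.97 and 7.11 at 12 h, 6.58, 6.53 and 6.63 at 24 h and 6.65, 6.60 and 6.63 at 48 h. Gmnn read 7.30, 7.14 and 7.12 in steady 600 and, with 900 mosmol/kg, 7.14, 7.30 and 7.37 at 12 h and 6.80, 6.76 and 7.14 at 24 h. The returned arrays all exceeded steady 900, and the arrays at 24 and 48 h all lay below steady 300, whereas those at 3 and 12 h overlapped it and both times at 900 mosmol/kg overlapped steady 600. Gmnn rose by 0.94 ± 0.11 in returned cells and fell by 0.58 ± 0.11 at 24 h of 600 mosmol/kg (adjusted p = 1.38e-04). Orc1 had log2 values of 6.65, 6.65 and 6.34 on the 3 returned arrays, against 5.43, 5.74 and 5.18 in steady 900. Orc1 measured 4.97, 4.89 and 4.87 in steady 300 and, with 600 mosmol/kg, 4.93, 5.13 and 5.00 at 3 h, 4.78, 5.04 and 4.80 at 12 h, 4.65, 4.34 and 4.46 at 24 h and 4.23, 4.46 and 4.57 at 48 h. Orc1 stood at 4.99, 4.96 and 4.91 in steady 600 and, with 900 mosmol/kg, 4.71, 4.63 and 4.57 at 12 h and 4.69, 4.86 and 4.73 at 24 h. Orc1, the largest subunit of the origin recognition complex, rose by 1.10 ± 0.11 in returned cells without overlap, and its 24 and 48 h arrays lay below steady 300 (changes −0.43 ± 0.11 and −0.49 ± 0.11). Orc6, another subunit, averaged 7.68 in returned cells, against 6.80 in steady 900, and fell by 0.45 ± 0.10 already at 3 h of 600 mosmol/kg.

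Of the MCM helicase, Mcm5 varied most. Mcm5 read 9.63, 9.75 and 9.57 on the 3 returned arrays, against 9.00, 8.88 and 8.83 in steady 900. Mcm5 had log2 values of 7.53, 7.54 and 7.53 in steady 300 and, with 600 mosmol/kg, 6.76, 6.89 and 6.84 at 3 h, 7.63, 7.40 and 7.78 at 12 h, 6.57, 6.50 and 6.38 at 24 h and 5.97, 6.08 and 6.07 at 48 h. Mcm5 measured 7.73, 7.60 and 7.53 in steady 600 and, with 900 mosmol/kg, 6.29, 6.54 and 7.10 at 12 h and 6.62, 6.41 and 7.07 at 24 h. Its 3 h arrays lay below steady 300, its 12 h arrays overlapped it, and its 24 and 48 h arrays again lay below. Mcm5 fell by 0.70 ± 0.14 at 3 h, was 0.77 ± 0.14 higher at 12 h than at 3 h, and fell by 1.49 ± 0.14 at 48 h (adjusted p = 2.67e-09). Mcm2 stood at 9.47, 9.60 and 9.46 on the 3 returned arrays, against 9.20, 9.16 and 9.10 in steady 900. Mcm2 read 8.24, 8.01 and 8.12 in steady 300 and, with 600 mosmol/kg, 7.80, 7.81 and 8.06 at 3 h, 8.20, 8.25 and 8.29 at 12 h, 7.71, 7.63 and 7.71 at 24 h and 7.64, 7.52 and 7.55 at 48 h. Mcm2 had log2 values of 8.43, 8.41 and 8.43 in steady 600 and, with 900 mosmol/kg, 8.07, 8.06 and 8.16 at 12 h and 8.07, 8.17 and 8.39 at 24 h. Mcm2 lay above steady 900 on all returned arrays (change 0.36 ± 0.08) and below steady 300 at 24 and 48 h, with overlap at 3 and 12 h. Its change was −0.44 ± 0.08 at 24 h and −0.56 ± 0.08 at 48 h (adjusted p = 5.45e-06). Mcm6 measured 9.62, 9.59 and 9.53 on the 3 returned arrays, against 8.66, 8.79 and 8.59 in steady 900. Mcm6 stood at 7.53, 7.44 and 7.48 in steady 300 and, with 600 mosmol/kg, 7.54, 7.45 and 7.17 at 3 h, 7.75, 7.86 and 7.76 at 12 h, 7.10, 7.07 and 7.04 at 24 h and 6.73, 6.77 and 6.74 at 48 h. Mcm6 read 7.96, 7.90 and 7.77 in steady 600 and, with 900 mosmol/kg, 7.27, 7.45 and 7.14 at 12 h and 7.20, 7.19 and 7.30 at 24 h. Mcm6 rose by 0.31 ± 0.09 at 12 h of 600 mosmol/kg without overlap (adjusted p = 0.00507) and fell by 0.74 ± 0.09 at 48 h. At 900 mosmol/kg every array at 12 and 24 h lay below steady 600 (changes −0.59 ± 0.09 and −0.65 ± 0.09).

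Other MCM proteins differed in timing. Mcm7, a core subunit of the helicase, rose by 0.38 ± 0.11 at 12 h of 600 mosmol/kg and had changes of 0.02 and 0.13 at 24 and 48 h, which did not pass. Mcm10, which helps the helicase to fire, averaged 6.47 in steady 600, 5.23 at 12 h of 900 mosmol/kg and 6.26 at 24 h. It fell by 1.24 ± 0.15 at 12 h and was 1.02 ± 0.15 higher at 24 h than at 12 h. Mcm8, a paralog that acts in recombination repair, averaged 5.25 in returned cells, against 4.34 in steady 300 (change 0.91 ± 0.11).

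Of 6 helicase activation genes, 5 rose in returned cells relative to steady 900, against 19.3% of all genes. Cdc45 had log2 values of 7.90, 7.85 and 8.17 on the 3 returned arrays, against 6.75, 6.77 and 6.64 in steady 900. Cdc45 measured 6.07, 6.18 and 6.17 in steady 300 and, with 600 mosmol/kg, 5.75, 6.08 and 5.87 at 3 h, 6.10, 6.15 and 6.06 at 12 h, 5.66, 5.60 and 5.67 at 24 h and 5.57, 5.47 and 5.22 at 48 h. Cdc45 stood at 6.19, 6.13 and 5.95 in steady 600 and, with 900 mosmol/kg, 5.57, 5.71 and 5.65 at 12 h and 5.60, 5.73 and 6.09 at 24 h. Cdc45, which joins the MCM ring, lay above steady 900 on all returned arrays, and its arrays at 24 and 48 h lay below steady 300. It rose by 1.25 ± 0.11 in returned cells and fell by 0.72 ± 0.11 at 48 h (adjusted p = 7.44e-06). Gins1 read 6.70, 6.38 and 6.75 on the 3 returned arrays, against 5.15, 5.08 and 5.06 in steady 900. Gins1 had log2 values of 4.49, 4.41 and 4.63 in steady 300 and, with 600 mosmol/kg, 4.52, 4.56 and 4.20 at 3 h, 4.41, 4.21 and 4.42 at 12 h, 4.32, 4.05 and 3.89 at 24 h and 3.93, 3.99 and 3.97 at 48 h. Gins1 measured 4.29, 4.70 and 4.63 in steady 600 and, with 900 mosmol/kg, 3.81, 4.26 and 3.67 at 12 h and 3.56, 3.60 and 3.92 at 24 h. Gins1, a GINS subunit, rose by 1.52 ± 0.14 in returned cells and fell by 0.85 ± 0.14 at 24 h of 900 mosmol/kg, both without overlap. The 48 h arrays at 600 mosmol/kg lay below steady 300 (change −0.55 ± 0.14), while those at 3 and 12 h overlapped it.

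Among the other GINS subunits, Gins4 averaged 8.31 in returned cells, against 7.19 in steady 900, and fell by 0.56 ± 0.11 at 3 h of 600 mosmol/kg. Gins2 averaged 6.98 in returned cells, against 6.31 in steady 900 (change 0.67 ± 0.10). None of its changes after either upward step passed, and they ran from −0.20 at 48 h to 0.17 at 3 h of 600 mosmol/kg. Gins3 went against most of the set after the step to 900 mosmol/kg, with means of 6.86 in steady 600, 7.32 at 12 h and 7.35 at 24 h (changes 0.46 ± 0.11 and 0.49 ± 0.11). Cdc7, the kinase that triggers origin firing, averaged 6.38 in steady 300, 5.65 at 3 h and 6.72 at 12 h of 600 mosmol/kg. It fell by 0.73 ± 0.10 at 3 h and was 1.07 ± 0.10 higher at 12 h than at 3 h.

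Of 8 polymerase and primase genes, 5 fell at 3 h of 600 mosmol/kg, against 29.5% of all genes. Pold1 rose (0.27), but not without steady 300 replicate 3 (0.24, adjusted p = 0.0638). Prim1, the catalytic primase subunit, stood at 8.0, 8.03 and 7.89 in steady 300, 6.97, 6.80 and 7.03 at 3 h, 7.47, 7.46 and 7.64 at 12 h, 7.84, 7.83 and 7.76 at 24 h and 7.53, 7.45 and 7.42 at 48 h of 600 mosmol/kg. Every challenged array lay below steady 300, with a change of −1.04 ± 0.11 at 3 h (adjusted p = 2.07e-08). With 900 mosmol/kg Prim1 fell by 0.82 ± 0.11 at 12 h and was 0.80 ± 0.11 higher at 24 h than at 12 h. Prim2, the large primase subunit, fell by 0.60 ± 0.08 at 3 h and 0.59 ± 0.08 at 48 h of 600 mosmol/kg. Pold3, an accessory subunit of polymerase delta, stood at 7.89, 7.88 and 7.81 in steady 300, 6.89, 6.91 and 7.23 at 3 h, 8.08, 8.33 and 8.34 at 12 h, 7.94, 7.90 and 8.01 at 24 h and 7.87, 7.81 and 7.83 at 48 h. Its 3 h arrays lay far below steady 300 and its 12 h arrays above, with changes of −0.85 ± 0.11 and 0.39 ± 0.11.

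Pola2, the second subunit of polymerase alpha, rose at 24 h of both upward steps, when most called genes of the set fell. It also rose, as most of the set did, in steady 900 relative to steady 600 (0.70 ± 0.11). It stood at 7.77, 7.76 and 7.74 in returned cells, against 7.56, 7.72 and 7.59 in steady 900. Pola2 then read 6.79, 6.69 and 6.61 in steady 300 and, with 600 mosmol/kg, 6.92, 6.90 and 6.51 at 3 h, 6.73, 7.04 and 7.09 at 12 h, 7.11, 7.23 and 7.13 at 24 h and 6.99, 7.03 and 7.22 at 48 h. In steady 600 the values were 6.88, 6.92 and 6.98, followed by 7.36, 7.38 and 7.15 at 12 h and 7.73, 7.38 and 7.62 at 24 h of 900 mosmol/kg. The arrays at 24 and 48 h of 600 mosmol/kg and at both times of 900 mosmol/kg lay above their starting groups, and Pola2 alone had its lowest group mean in steady 300. It rose by 0.46 ± 0.11 at 24 h of 600 mosmol/kg (adjusted p = 0.00153) and by 0.65 ± 0.11 at 24 h of 900 mosmol/kg (adjusted p = 2.27e-05). The catalytic subunit gene Pola1 differed, falling by 0.44 ± 0.11 and 0.46 ± 0.11 at 12 and 24 h of 900 mosmol/kg. Pold2, a subunit of polymerase delta, averaged 8.80 in returned cells, against 7.23 in steady 900, and Pold1, its catalytic subunit, averaged 8.20, against 7.21. Pole, the catalytic subunit of the leading-strand polymerase, fell by 0.83 ± 0.09 at 24 h of 900 mosmol/kg and by 0.52 ± 0.09 at 48 h of 600 mosmol/kg.

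Pcna, the sliding clamp, rose in the first 12 h of 600 mosmol/kg. Pcna stood at 10.80, 10.55 and 10.72 on the 3 returned arrays, against 9.81, 9.91 and 9.66 in steady 900. Pcna read 8.33, 8.38 and 8.46 in steady 300 and, with 600 mosmol/kg, 8.84, 9.04 and 8.59 at 3 h, 9.46, 9.28 and 9.29 at 12 h, 8.41, 8.29 and 8.29 at 24 h and 8.24, 8.18 and 8.07 at 48 h. Pcna had log2 values of 9.05, 8.91 and 8.78 in steady 600 and, with 900 mosmol/kg, 8.76, 8.66 and 8.81 at 12 h and 8.68, 8.41 and 8.76 at 24 h. The arrays at 3 and 12 h lay above steady 300, those at 24 h overlapped it and those at 48 h lay below it, while the arrays at 12 h of 900 mosmol/kg overlapped steady 600. Pcna rose by 0.43 ± 0.10 at 3 h and by 0.95 ± 0.10 at 12 h (adjusted p = 2.37e-08), and was −1.01 ± 0.10 at 24 h relative to 12 h. Its change of −0.23 ± 0.10 at 48 h did not pass (adjusted p = 0.132). Rpa2, a subunit of the single-strand binding protein, had a similar peak, at 6.45, 6.45 and 6.38 in steady 300, 6.48, 6.67 and 6.06 at 3 h, 7.12, 7.20 and 7.18 at 12 h, 6.58, 6.66 and 6.35 at 24 h and 6.19, 6.28 and 6.20 at 48 h. Its 12 h arrays lay above all others of that series (change 0.74 ± 0.11), and it also rose by 0.48 ± 0.11 at 12 h of 900 mosmol/kg. Rpa1, the largest RPA subunit, fell by 0.40 ± 0.09 at 48 h of 600 mosmol/kg. Rpa3 had a change of 0.39 ± 0.11 in returned cells relative to steady 300, the smallest of the 51. Relative to steady 900 its change was 0.36, against 0.5 for a second Rpa3 probe set with a mean of 7.25 over all arrays.

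The clamp loader genes rose in returned cells. Rfc4 averaged 8.84 there, against 7.21 in steady 900, and Rfc3 7.64, against 6.48. Rfc2 averaged 9.04, against 8.07, and Rfc5 8.10, against 7.35. Rfc3 averaged 6.48 in steady 900 and 6.48 in steady 600, a difference that did not pass, while Rfc4 rose by 0.58 ± 0.13 and Rfc2 by 0.52 ± 0.09 between them. Fen1, the nuclease that trims lagging-strand primers, averaged 8.44 in returned cells, against 7.54 in steady 900. Lig1, which seals the fragments, averaged 8.89, against 8.30, and fell by 0.48 ± 0.08 at 3 h of 600 mosmol/kg.

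Rrm2 had the widest range of the set. Rrm2 measured 11.15, 11.13 and 11.09 on the 3 returned arrays, against 9.97, 10.05 and 9.85 in steady 900. Rrm2 stood at 8.62, 8.54 and 8.67 in steady 300 and, with 600 mosmol/kg, 8.20, 8.20 and 7.86 at 3 h, 8.22, 8.10 and 8.19 at 12 h, 6.83, 6.69 and 6.57 at 24 h and 6.46, 6.58 and 6.37 at 48 h. Rrm2 read 8.70, 8.65 and 8.54 in steady 600 and, with 900 mosmol/kg, 7.47, 7.49 and 7.53 at 12 h and 7.34, 7.27 and 8.03 at 24 h. The returned arrays lay above all others, and the arrays at 24 and 48 h of 600 mosmol/kg lay below every array of steady 300 and of the earlier times. Rrm2 fell by 1.92 ± 0.13 at 24 h (adjusted p = 9.43e-13) and by 2.14 ± 0.13 at 48 h (adjusted p = 1.08e-13), a 4.4-fold lower level. Its second probe set had a change of −2.03 at 48 h. Rrm1 had log2 values of 10.58, 10.73 and 10.68 on the 3 returned arrays, against 9.93, 9.94 and 9.88 in steady 900. Rrm1 measured 9.31, 9.38 and 9.25 in steady 300 and, with 600 mosmol/kg, 8.92, 8.94 and 8.77 at 3 h, 9.17, 9.12 and 9.34 at 12 h, 8.74, 8.71 and 8.63 at 24 h and 8.54, 8.53 and 8.48 at 48 h. Rrm1 stood at 9.50, 9.35 and 9.33 in steady 600 and, with 900 mosmol/kg, 8.30, 8.42 and 8.85 at 12 h and 8.75, 8.64 and 8.98 at 24 h. Rrm1, the large subunit of the same enzyme, lay below steady 300 at 3, 24 and 48 h and overlapped it at 12 h. It lay below steady 600 at both times of 900 mosmol/kg. It fell by 0.80 ± 0.10 at 48 h (adjusted p = 5.56e-07) and by 0.87 ± 0.10 at 12 h of 900 mosmol/kg. A second Rrm1 probe set, dim at a mean of 3.85 over all arrays, differed by −0.28 at 48 h.

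Tyms, thymidylate synthase, rose in returned cells and fell after both upward steps. Tyms read 10.20, 10.25 and 10.13 on the 3 returned arrays, against 8.75, 8.84 and 8.69 in steady 900. Tyms had log2 values of 8.09, 8.05 and 8.07 in steady 300 and, with 600 mosmol/kg, 7.44, 7.63 and 7.58 at 3 h, 7.81, 7.98 and 8.03 at 12 h, 7.46, 7.45 and 7.39 at 24 h and 6.93, 7.02 and 6.97 at 48 h. Tyms measured 8.35, 8.35 and 8.27 in steady 600 and, with 900 mosmol/kg, 6.94, 6.97 and 7.0 at 12 h and 7.18, 7.20 and 7.59 at 24 h. Every array at 3, 24 and 48 h lay below steady 300, and so did those at 12 h, by less. Tyms rose by 1.43 ± 0.09 in returned cells and fell by 0.52 ± 0.09 at 3 h and 1.10 ± 0.09 at 48 h of 600 mosmol/kg. It fell by 1.36 ± 0.09 at 12 h of 900 mosmol/kg (adjusted p = 3.29e-13). Tk1 stood at 6.59, 7.33 and 6.64 on the 3 returned arrays, against 6.42, 5.84 and 6.74 in steady 900. Tk1 read 5.89, 5.66 and 5.73 in steady 300 and, with 600 mosmol/kg, 6.07, 5.58 and 5.86 at 3 h, 5.75, 5.77 and 5.54 at 12 h, 5.54, 5.77 and 5.38 at 24 h and 5.45, 5.56 and 5.85 at 48 h. Tk1 had log2 values of 5.65, 6.11 and 6.03 in steady 600 and, with 900 mosmol/kg, 5.53, 5.73 and 5.24 at 12 h and 5.73, 5.71 and 5.69 at 24 h. Tk1, the thymidine kinase of S phase, varied more between replicates, and its groups overlapped in every comparison with the starting culture. Its change of 0.52 ± 0.19 in returned cells passed (adjusted p = 0.0289) but missed after quantile normalization (0.47, adjusted p = 0.0522) or when the fit held the compared arrays alone (adjusted p = 0.134). It also missed without steady 900 replicate 2 (0.27, adjusted p = 0.289) or returned replicate 2 (0.28, adjusted p = 0.284). Dut, the dUTPase that keeps uracil out of DNA, fell by 0.56 ± 0.09 at 12 h of 600 mosmol/kg and by 0.92 ± 0.09 at 12 h of 900 mosmol/kg.

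Of the G1/S regulators, Cdc25a, the phosphatase that activates CDK2, had the largest early decrease of the set. Cdc25a measured 8.33, 8.39 and 8.39 on the 3 returned arrays, against 8.12, 8.25 and 8.04 in steady 900. Cdc25a stood at 7.92, 7.86 and 7.98 in steady 300 and, with 600 mosmol/kg, 6.59, 6.76 and 6.92 at 3 h, 7.38, 7.46 and 7.64 at 12 h, 7.77, 7.78 and 7.90 at 24 h and 7.82, 7.83 and 7.61 at 48 h. Cdc25a read 7.86, 7.86 and 7.82 in steady 600 and, with 900 mosmol/kg, 7.34, 7.52 and 7.78 at 12 h and 7.57, 7.45 and 7.64 at 24 h. Its 3 h arrays lay far below steady 300, its 12 h arrays lay below it by less, and its 24 h arrays overlapped it. Cdc25a fell by 1.17 ± 0.10 at 3 h (adjusted p = 3.32e-10) and by 0.43 ± 0.10 at 12 h (adjusted p = 8.63e-04), and its change of −0.10 ± 0.10 at 24 h did not pass. Ccne1 had log2 values of 8.48, 8.41 and 8.49 on the 3 returned arrays, against 7.44, 7.53 and 7.30 in steady 900. Ccne1 measured 6.26, 6.20 and 6.25 in steady 300 and, with 600 mosmol/kg, 5.94, 5.90 and 5.65 at 3 h, 6.39, 6.26 and 6.37 at 12 h, 6.14, 6.10 and 5.91 at 24 h and 6.02, 6.03 and 5.94 at 48 h. Ccne1 stood at 6.38, 6.51 and 6.41 in steady 600 and, with 900 mosmol/kg, 6.31, 6.40 and 6.28 at 12 h and 6.0, 6.37 and 6.15 at 24 h. Ccne1, cyclin E1, rose by 1.04 ± 0.09 in returned cells and fell by 0.41 ± 0.09 at 3 h of 600 mosmol/kg (adjusted p = 5.33e-04), both without overlap. Ccne2 read 8.26, 8.40 and 7.98 on the 3 returned arrays, against 7.31, 7.61 and 7.36 in steady 900. Ccne2 had log2 values of 6.16, 5.94 and 6.27 in steady 300 and, with 600 mosmol/kg, 5.58, 5.63 and 5.71 at 3 h, 5.55, 5.56 and 5.56 at 12 h, 5.38, 5.25 and 5.42 at 24 h and 5.25, 5.20 and 5.28 at 48 h. Ccne2 measured 6.25, 6.06 and 6.26 in steady 600 and, with 900 mosmol/kg, 5.42, 5.52 and 5.58 at 12 h and 4.89, 5.47 and 5.58 at 24 h. Ccne2, cyclin E2, lay below steady 300 on all 12 challenged arrays and below steady 600 on all 6 arrays at 900 mosmol/kg. Its changes were −0.48 ± 0.13 at 3 h, −0.57 ± 0.13 at 12 h, −0.77 ± 0.13 at 24 h and −0.88 ± 0.13 at 48 h of 600 mosmol/kg.

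The E2F genes were highest in returned cells and differed in their distance from steady 900. E2f1 stood at 7.0, 7.15 and 6.96 on the 3 returned arrays, against 6.86, 6.82 and 6.53 in steady 900. E2f1 read 5.5, 5.5 and 5.31 in steady 300 and, with 600 mosmol/kg, 5.26, 5.24 and 5.77 at 3 h, 5.16, 5.37 and 5.40 at 12 h, 5.22, 4.93 and 4.65 at 24 h and 4.82, 4.73 and 5.19 at 48 h. E2f1 had log2 values of 5.94, 5.45 and 5.66 in steady 600 and, with 900 mosmol/kg, 5.51, 5.32 and 5.11 at 12 h and 5.12, 5.29 and 5.34 at 24 h. E2f1, an activator of S phase genes, lay above steady 900 on all returned arrays, but its change of 0.30 ± 0.15 did not pass (adjusted p = 0.129). Relative to steady 600, steady 900 was 1.05 ± 0.15 higher (adjusted p = 2.94e-06). E2f7 measured 7.23, 7.76 and 7.44 on the 3 returned arrays, against 6.48, 6.50 and 6.44 in steady 900. E2f7 stood at 5.80, 5.94 and 6.23 in steady 300 and, with 600 mosmol/kg, 5.94, 5.93 and 6.22 at 3 h, 5.92, 5.66 and 6.08 at 12 h, 5.02, 5.48 and 5.52 at 24 h and 5.45, 5.60 and 5.17 at 48 h. E2f7 read 5.99, 5.87 and 5.92 in steady 600 and, with 900 mosmol/kg, 5.31, 5.29 and 5.61 at 12 h and 5.23, 5.18 and 5.20 at 24 h. E2f7, a repressor of the same genes, rose by 1.00 ± 0.14 in returned cells and fell by 0.65 ± 0.14 at 24 h of 600 mosmol/kg and 0.72 ± 0.14 at 24 h of 900 mosmol/kg, all without overlap. E2f8 had log2 values of 6.63, 6.15 and 6.66 on the 3 returned arrays, against 6.05, 6.18 and 6.08 in steady 900. E2f8 measured 5.05, 5.06 and 4.96 in steady 300 and, with 600 mosmol/kg, 5.18, 5.28 and 5.15 at 3 h, 4.62, 5.07 and 5.08 at 12 h, 5.04, 4.59 and 4.92 at 24 h and 4.52, 4.91 and 5.27 at 48 h. E2f8 stood at 5.46, 5.19 and 5.5 in steady 600 and, with 900 mosmol/kg, 4.83, 5.00 and 4.92 at 12 h and 5.08, 4.61 and 4.89 at 24 h. E2f8, its close relative, had returned arrays that overlapped steady 900 (change 0.38 ± 0.16, adjusted p = 0.0597), and none of its changes after the step to 600 mosmol/kg passed.

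Uhrf1, which carries DNA methylation through replication, fell late after the step to 600 mosmol/kg. Uhrf1 read 9.31, 9.39 and 9.36 on the 3 returned arrays, against 7.98, 8.24 and 8.03 in steady 900. Uhrf1 had log2 values of 7.09, 7.11 and 7.11 in steady 300 and, with 600 mosmol/kg, 7.09, 6.92 and 7.12 at 3 h, 7.06, 6.84 and 7.0 at 12 h, 6.22, 6.20 and 6.13 at 24 h and 6.21, 6.01 and 6.15 at 48 h. Uhrf1 measured 7.16, 7.03 and 6.98 in steady 600 and, with 900 mosmol/kg, 6.48, 6.40 and 6.32 at 12 h and 5.90, 6.20 and 6.29 at 24 h. All arrays at 24 and 48 h of 600 mosmol/kg and at both times of 900 mosmol/kg lay below their starting groups. Uhrf1 rose by 1.27 ± 0.09 in returned cells and fell by 0.92 ± 0.09 at 24 h of 600 mosmol/kg (adjusted p = 5.12e-09). Chaf1b stood at 6.84, 6.75 and 6.83 on the 3 returned arrays, against 5.82, 5.95 and 6.18 in steady 900. Chaf1b read 5.77, 5.65 and 5.56 in steady 300 and, with 600 mosmol/kg, 5.32, 5.62 and 5.80 at 3 h, 5.52, 5.68 and 5.82 at 12 h, 5.15, 5.21 and 5.11 at 24 h and 5.21, 5.38 and 4.94 at 48 h. Chaf1b had log2 values of 5.53, 5.44 and 5.35 in steady 600 and, with 900 mosmol/kg, 4.87, 4.98 and 5.48 at 12 h and 5.02, 5.06 and 5.01 at 24 h. Chaf1b, a subunit of the histone chaperone CAF-1, rose by 0.82 ± 0.13 in returned cells and fell by 0.50 ± 0.13 at 24 h of 600 mosmol/kg, both without overlap. Brca1 measured 6.92, 6.97 and 6.86 on the 3 returned arrays, against 6.48, 6.59 and 6.24 in steady 900. Brca1 stood at 5.58, 5.34 and 5.28 in steady 300 and, with 600 mosmol/kg, 4.76, 4.90 and 5.02 at 3 h, 5.63, 5.73 and 5.61 at 12 h, 5.17, 5.34 and 5.55 at 24 h and 5.11, 5.19 and 5.36 at 48 h. Brca1 read 5.59, 5.71 and 5.56 in steady 600 and, with 900 mosmol/kg, 5.62, 5.61 and 5.83 at 12 h and 5.41, 5.36 and 5.36 at 24 h. Brca1, which acts in recombination repair, lay below steady 300 at 3 h and narrowly above it at 12 h, where its change did not pass. Brca1 was 0.76 ± 0.10 higher at 12 h than at 3 h (adjusted p = 6.95e-07). It rose by 0.48 ± 0.10 in returned cells. Brca2, its partner in repair, averaged 6.24 in returned cells, against 5.84 in steady 900, and Exo1, an end-resecting nuclease, averaged 6.90, against 5.84.

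To see what a fall in osmolality does, returned cells were compared with steady 900, from which they came. Genes of every role rose after 24 h at 300 mosmol/kg, and the single genes with the largest changes were Rfc4, Pold2 and Gins1. Of the 51 genes, 46 rose and 0 fell, against 19.3% of all genes higher and 18.5% lower, and 42 of the 46 passed under every alternative processing tried. The median change was 0.81, against −0.02 over all genes, and for 48 genes the 3 returned arrays all lay above those of steady 900, against 25.3% of all genes. All 5 licensing, 6 MCM and 5 nucleotide genes and all 10 of the clamp, RPA and lagging strand group rose, as did 7 of 8 polymerase and 5 of 6 helicase activation genes, and 3 of 6 G1/S regulators. Rfc4 rose by 1.63 ± 0.13, Pold2 by 1.57 ± 0.10 and Gins1 by 1.52 ± 0.14. Tyms rose by 1.43 ± 0.09, Uhrf1 by 1.27 ± 0.09 and Cdc45 by 1.25 ± 0.11, followed by Rrm2 with 1.17 ± 0.13 and Rfc3 with 1.16 ± 0.14. The 5 genes that did not pass were Pola2 (0.13, adjusted p = 0.38), Gins3 (0.20, 0.186), Cdc25a (0.23, 0.0644), E2f1 (0.30, 0.129) and E2f8 (0.38, 0.0597). Of the marker lists, fibroblast markers had list means of 6.76 in returned cells and 6.74 in steady 900, leukocyte markers 5.67 and 6.42, and collecting duct markers 7.59 and 8.82, and their part in the result was not tested.

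Against steady 300, whose osmolality the returned cells now shared, all 51 genes rose and 0 fell, against 20.4% of all genes higher and 22.2% lower. All 51 passed under every alternative processing, and the median change was 1.52, against −0.02 over all genes. For all 51 the returned arrays lay above those of steady 300, against 26.7% of all genes. Rrm2 rose by 2.51 ± 0.13, Cdc6 by 2.46 ± 0.12 and Rfc4 by 2.33 ± 0.13. Pcna rose by 2.30 ± 0.10, Mcm10 by 2.25 ± 0.15 and Uhrf1 by 2.25 ± 0.09, followed by Ccne1 with 2.23 ± 0.09 and Tyms with 2.12 ± 0.09. The 2 comparisons share the returned arrays. Fibroblast markers had a list mean of 6.76 in returned cells, against 8.84 in steady 300 (9 of 10 fell), and leukocyte markers 5.67, against 8.48 (9 of 10 fell), and the part of these cells in the result was not tested.

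To follow a rise in osmolality over time, cells challenged with 600 mosmol/kg were compared with steady 300. At 3 h, 3 of the 51 genes rose and 22 fell, against 12.1% of all genes higher and 29.5% lower, with a median of −0.20, against −0.04 over all genes. Under every alternative processing 2 and 14 of these passed. The decrease took in 5 of 8 polymerase and primase genes, 3 of 5 nucleotide genes and 4 of 10 of the clamp, RPA and lagging strand group, but 1 of 5 licensing genes. Cdc25a fell by 1.17 ± 0.10, Prim1 by 1.04 ± 0.11, Pold3 by 0.85 ± 0.11 and Cdc7 by 0.73 ± 0.10. Mcm5 fell by 0.70 ± 0.14, Prim2 by 0.60 ± 0.08 and Gins4 by 0.56 ± 0.11. Exo1 had a change of −0.53 ± 0.15, which missed the threshold without 3 h replicate 1 (−0.42, adjusted p = 0.0509). The genes that rose were Cdc6 (0.54), Pcna (0.43) and Pold1 (0.27), the last not without steady 300 replicate 3 (0.24, adjusted p = 0.0638).

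At 12 h the set was divided, with 8 genes higher and 8 lower, against 11.9% of all genes higher and 22.6% lower, and a median of −0.07, against −0.01. Under every alternative 5 and 5 of these passed. Pcna rose by 0.95 ± 0.10, Rpa2 by 0.74 ± 0.11, Pold3 by 0.39 ± 0.11, Mcm7 by 0.38 ± 0.11 and Mcm6 by 0.31 ± 0.09. Pola1 (0.35), Cdc7 (0.34) and Fen1 (0.32) also rose, but 1 array decided each call. Pola1 missed without steady 300 replicate 1 (0.32, adjusted p = 0.0539) and Cdc7 without 12 h replicate 3 (0.25, adjusted p = 0.0676). Fen1 missed without steady 300 replicate 3 (0.25, adjusted p = 0.0922) or 12 h replicate 2 (0.30, adjusted p = 0.0508). Ccne2 fell by 0.57 ± 0.13, Dut by 0.56 ± 0.09, Prim1 by 0.45 ± 0.11, Orc6 by 0.43 ± 0.10 and Cdc25a by 0.43 ± 0.10. Less stable calls were Exo1 (−0.50, adjusted p = 0.0653 without 12 h replicate 2 and 0.0781 after median centring) and Rrm2 (−0.44, 0.0828 after median centring). Cdc6 (−0.33) missed without replicate 1 or 2 of either group (−0.29 to −0.26) and after quantile normalization, centring or cyclic loess (−0.27 to −0.16).

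The scale of the arrays bears on these early times. After median centring of each array the median of all genes was 0.13 at 3 h, 0.16 at 12 h and 0.12 at 12 h of 900 mosmol/kg, and relative to it the 51 genes stood at −0.16, −0.05 and −0.34. Relative to all genes they stood at −0.07, 0.07 and −0.30 after quantile normalization and at −0.08, 0.00 and −0.34 after cyclic loess. The split at 3 h was 7 higher and 17 lower after centring and after quantile normalization, and 3 and 17 after cyclic loess. At 12 h it was 20 and 5 after centring, 16 and 7 after quantile normalization and 12 and 7 after cyclic loess, so no direction of the set at 12 h is given.

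By 24 h the decrease covered most roles. Of the 51 genes, 1 rose and 26 fell, against 9.4% of all genes higher and 13.0% lower, with a median of −0.31, against 0.01, and 1 and 19 of these passed under every alternative. All 5 licensing, 5 of 6 MCM and 4 of 5 nucleotide genes fell, but 2 of 8 polymerase genes and 1 of 10 of the clamp, RPA and lagging strand group. Rrm2 fell by 1.92 ± 0.13, Mcm5 by 1.05 ± 0.14, Cdc6 by 0.98 ± 0.12 and Uhrf1 by 0.92 ± 0.09. Ccne2 fell by 0.77 ± 0.13, E2f7 by 0.65 ± 0.14, Tyms by 0.64 ± 0.09 and Rrm1 by 0.62 ± 0.10, while Pola2 rose by 0.46 ± 0.11. At 48 h, 1 gene rose and 29 fell, against 9.57% and 12.0% of all genes, with a median of −0.42, against 0.01, and 0 and 24 of these passed under every alternative. Rrm2 fell by 2.14 ± 0.13, Mcm5 by 1.49 ± 0.14, Tyms by 1.10 ± 0.09 and Cdc6 by 1.06 ± 0.12. Uhrf1 fell by 0.98 ± 0.09, Ccne2 by 0.88 ± 0.13, Rrm1 by 0.80 ± 0.10 and Exo1 by 0.75 ± 0.15. Pola2, the only one higher, had a change of 0.38 ± 0.11 that missed without 48 h replicate 3 (0.31, adjusted p = 0.0681). Fibroblast markers had list means of 8.84 in steady 300, 8.72 at 3 h, 8.32 at 12 h, 7.88 at 24 h and 7.74 at 48 h, and leukocyte markers of 8.48, 8.34, 8.52, 7.15 and 7.02, and their part in these results was not tested.

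Successive times place the turns. From 3 to 12 h, 24 genes were higher at 12 h and 3 lower, against 23.1% and 17.8% of all genes, and 19 and 2 of these passed under every alternative. The increase took in 7 of 10 of the clamp, RPA and lagging strand group, 5 of 8 polymerase genes and 4 of 6 MCM genes. Pold3 was 1.24 ± 0.11 higher, Cdc7 1.07 ± 0.10, Mcm5 0.77 ± 0.14, Pola1 0.77 ± 0.11 and Brca1 0.76 ± 0.10, while Cdc6 fell by 0.87 ± 0.12. From 12 to 24 h, 1 gene was higher at 24 h and 28 lower, against 17.5% and 9.51% of all genes, and 0 and 17 passed under every alternative. Rrm2 fell by 1.48 ± 0.13, Mcm5 by 1.12 ± 0.14, Pcna by 1.01 ± 0.10, Uhrf1 by 0.78 ± 0.09 and Mcm6 by 0.73 ± 0.09. From 24 to 48 h, 0 genes were higher and 2 lower, against 1.88% and 0.917% of all genes. Tyms fell by 0.46 ± 0.09, and Mcm6 (−0.32 ± 0.09) missed the threshold on leaving out any array of either group (adjusted p 0.0767 to 0.126). These successive comparisons share arrays with those against steady 300.

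**Figure D2:**
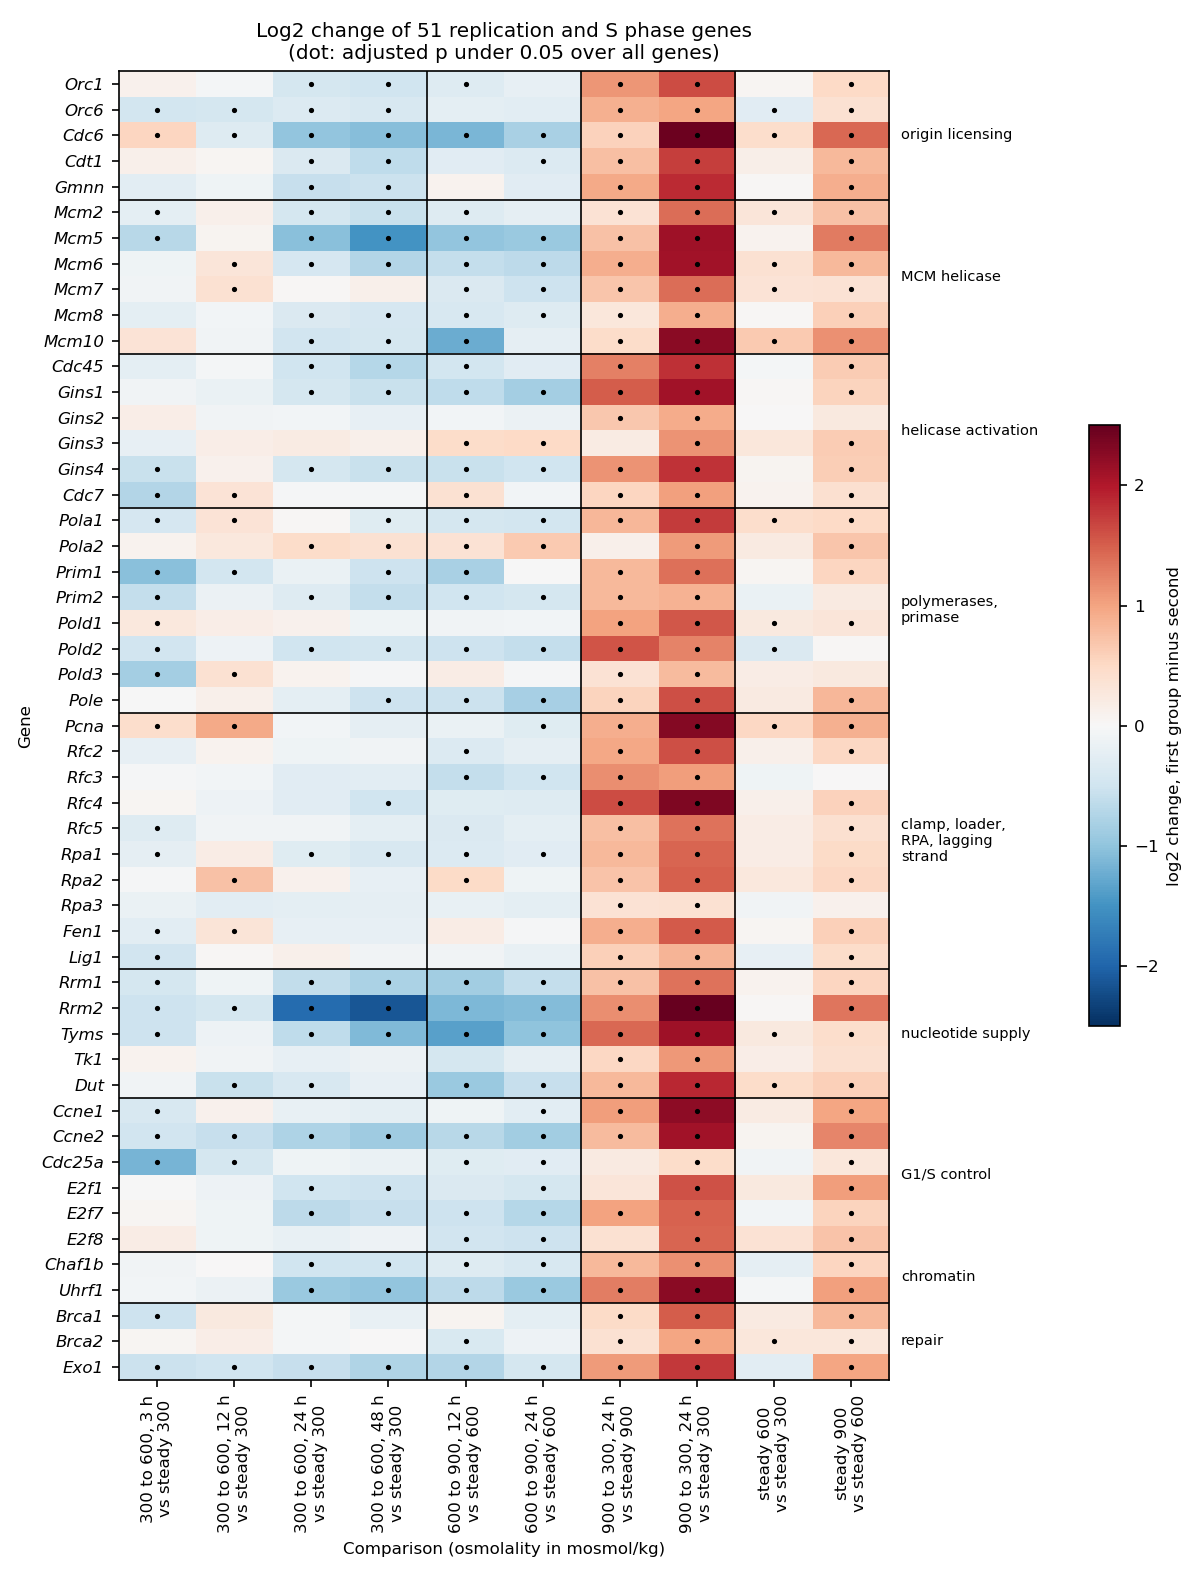
Log2 change (colour) of each of the 51 genes (rows, grouped by role) in 10 comparisons (columns, osmolality in mosmol/kg). A dot marks an adjusted p under 0.05 over all genes. Red fills the columns of returned cells, with 46 dots against steady 900 and 51 against steady 300, while in the 6 columns of upward steps more dots lie on blue than on red except at 12 h of 600 mosmol/kg, with 8 on each. Pola2 lies above 0 in all 6, and Gins3 in 5 of them.

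To ask whether cells already at 600 mosmol/kg respond alike to a further rise, cells challenged with 900 mosmol/kg were compared with steady 600. At 12 h, 4 of the 51 genes rose and 32 fell, against 12.5% of all genes higher and 25.3% lower, with a median of −0.37, against −0.03. Under every alternative 4 and 21 of these passed, and after median centring the split was 6 and 21. All 6 MCM and 4 of 5 nucleotide genes fell. Tyms fell by 1.36 ± 0.09, Mcm10 by 1.24 ± 0.15, Cdc6 by 1.14 ± 0.12 and Rrm2 by 1.13 ± 0.13. Mcm5 fell by 0.98 ± 0.14, Dut by 0.92 ± 0.09, Rrm1 by 0.87 ± 0.10 and Prim1 by 0.82 ± 0.11. Rpa2 rose by 0.48 ± 0.11, Gins3 by 0.46 ± 0.11, Cdc7 by 0.38 ± 0.10 and Pola2 by 0.37 ± 0.11. Fibroblast markers had list means of 8.28 in steady 600, 7.81 at 12 h and 7.57 at 24 h, and leukocyte markers of 7.06, 5.83 and 5.73, and their part in these results was not tested.

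At 24 h of 900 mosmol/kg, 2 genes rose and 28 fell, against 11.2% of all genes higher and 14.7% lower, with a median of −0.30, against 0.01, and 2 and 18 of these passed under every alternative. All 6 G1/S regulators and 4 of 5 nucleotide genes fell. Rrm2 fell by 1.08 ± 0.13, Tyms by 1.00 ± 0.09, Mcm5 by 0.92 ± 0.14 and Uhrf1 by 0.92 ± 0.09. Ccne2 fell by 0.87 ± 0.13, Gins1 by 0.85 ± 0.14, Pole by 0.83 ± 0.09 and Cdc6 by 0.81 ± 0.12, and Pola2 rose by 0.65 ± 0.11 and Gins3 by 0.49 ± 0.11. From 12 to 24 h, 8 genes were higher at 24 h and 6 lower, against 21.0% and 11.5% of all genes, but 3 and 9 after quantile normalization, 4 and 9 after centring and 4 and 8 after cyclic loess. The total of 14 was 9 without 24 h replicate 1. Mcm10 (1.02 ± 0.15) and Prim1 (0.80 ± 0.11) were higher, and Rpa2 (−0.58 ± 0.11) and Cdc7 (−0.45 ± 0.10) lower, under every alternative.

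The size of the 2 upward steps was compared directly, as the change with 900 mosmol/kg minus the change with 600 mosmol/kg. At 12 h the difference was negative for 18 of the 51 genes and positive for 0, against 7.25% and 6.18% of all genes, and 16 of these passed under every alternative. The 18 included 5 of 6 MCM genes and 3 of 5 nucleotide genes, and no G1/S regulator. Tyms differed by −1.23 ± 0.12, Mcm10 by −1.16 ± 0.21, Pcna by −1.12 ± 0.15, Mcm5 by −1.05 ± 0.20 and Mcm6 by −0.90 ± 0.12. Pcna, for example, had a change of −0.17 with 900 mosmol/kg, against 0.95 with 600 mosmol/kg. At 24 h the difference was positive for 1 gene and negative for 4, against 7.48% and 5.46% of all genes. Rrm2 differed by 0.83 ± 0.18, having fallen less with 900 than with 600 mosmol/kg, and Pole by −0.59 ± 0.13, both under every alternative. Without steady 300 replicate 3 or 24 h replicate 2 of 900 mosmol/kg the count of 5 was 2, and it was 3 without any of 6 other arrays (steady 300 replicate 1, steady 600 replicates 1 and 2, replicates 1 and 2 at 24 h of 600 mosmol/kg and replicate 1 at 24 h of 900 mosmol/kg). Leukocyte markers differed in the same comparison at 12 h, with 8 of 10 negative, and their part was not tested.

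**Figure D3:**
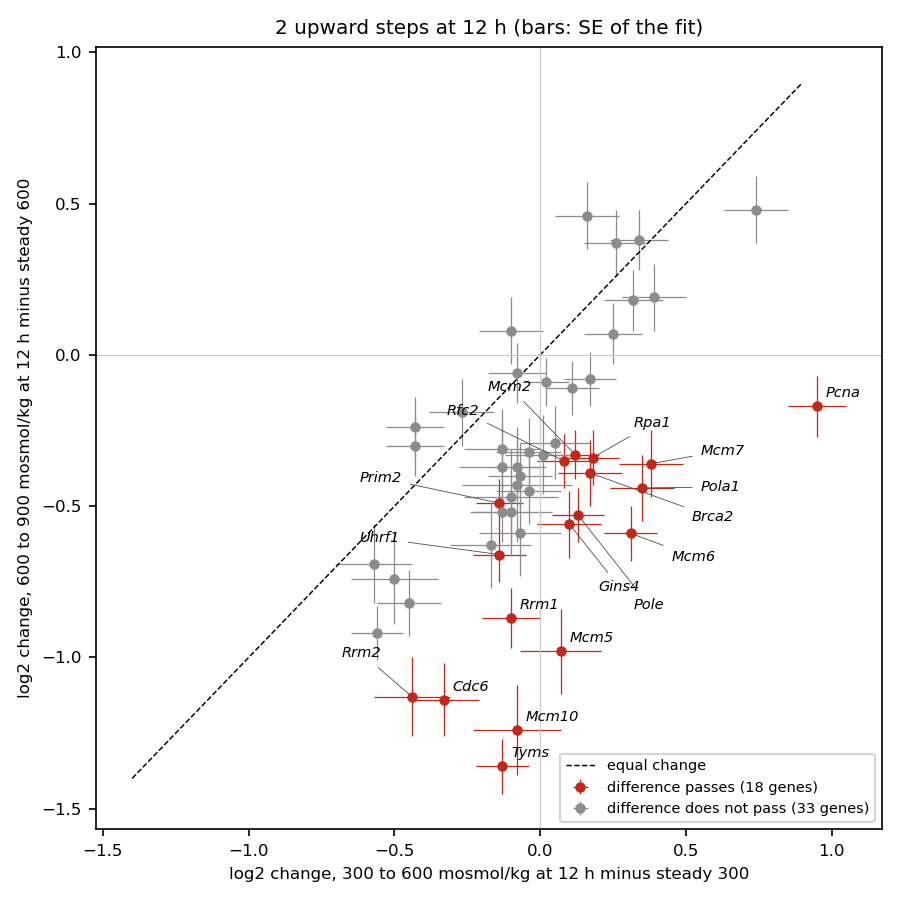
Log2 change at 12 h of 900 mosmol/kg minus steady 600 (vertical axis) against the change at 12 h of 600 mosmol/kg minus steady 300 (horizontal axis), 1 point per gene with SE bars. The dashed line marks equal change, and the 18 named genes, whose difference passed, lie below it, Pcna (−1.12) and Tyms (−1.23) farthest along with Mcm10.

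The steady cultures were compared with each other. In steady 600, 11 of the 51 genes were higher than in steady 300 and 2 lower, against 13.7% and 13.4% of all genes, and a median of 0.12, against 0.01. Under every alternative 6 and 1 passed, and the count of 13 was 8 without steady 600 replicate 1. Mcm10 rose by 0.65 ± 0.15, Pcna by 0.52 ± 0.10, Dut by 0.46 ± 0.09 and Cdc6 by 0.44 ± 0.12. Pola1 rose by 0.43 ± 0.11 and Mcm6 by 0.39 ± 0.09, and Pold2 fell by 0.36 ± 0.10. Mcm7 (0.34) missed without steady 300 replicate 3 (0.28, adjusted p = 0.0914) or steady 600 replicate 1 (0.31, adjusted p = 0.0649), and Mcm2 (0.30) without steady 300 replicate 2 (0.24, adjusted p = 0.056). Orc6 (−0.29) missed without steady 300 replicate 3 (−0.21, adjusted p = 0.202) or any steady 600 array (adjusted p 0.0507 to 0.0912).

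Steady 900 stood apart from steady 600: 44 genes rose and 0 fell, against 11.3% and 12.9% of all genes, with a median of 0.55, against −0.01, and 40 passed under every alternative. Cdc6 rose by 1.44 ± 0.12, Rrm2 by 1.33 ± 0.13, Mcm5 by 1.29 ± 0.14 and Ccne2 by 1.23 ± 0.13. Mcm10 rose by 1.15 ± 0.15, E2f1 by 1.05 ± 0.15, Uhrf1 by 1.03 ± 0.09 and Ccne1 by 0.99 ± 0.09. Relative to steady 300, 44 genes rose in steady 900 and 1 fell, against 20.2% and 22.3% of all genes, with a median of 0.68, against 0.00, and 41 and 0 passed under every alternative. Cdc6 rose by 1.88 ± 0.12, Mcm10 by 1.80 ± 0.15, Pcna by 1.40 ± 0.10 and Mcm5 by 1.37 ± 0.14. Rrm2 rose by 1.35 ± 0.13, Ccne2 by 1.30 ± 0.13, E2f1 by 1.30 ± 0.15 and Mcm6 by 1.2 ± 0.09. Pold2 (−0.33 ± 0.10) missed without steady 300 replicate 1 (−0.27, adjusted p = 0.0524). The list mean of the fibroblast markers was 8.84 at 300, 8.28 at 600 and 6.74 at 900 mosmol/kg, and that of the leukocyte markers 8.48, 7.06 and 6.42. Fibroblast markers did not move alike from 300 to 600 mosmol/kg, where the largest called changes were in Postn (−4.13), Thy1 (−0.77) and Dcn (0.67). The part of both marker lists in the result was not tested.

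Challenged cells were also compared with the steady culture of the osmolality they had moved to. At 48 h of 600 mosmol/kg, 0 genes were higher and 35 lower than in steady 600, against 9.47% and 12.5% of all genes, with a median of −0.49, against 0.00, and 29 passed under every alternative. Rrm2 was at −2.16 ± 0.13, Mcm5 at −1.58 ± 0.14, Cdc6 at −1.5 ± 0.12 and Tyms at −1.36 ± 0.09. Mcm6 was at −1.13 ± 0.09, Mcm10 at −1.08 ± 0.15, Ccne2 at −0.95 ± 0.13 and Uhrf1 at −0.93 ± 0.09. At 24 h of 900 mosmol/kg, 0 genes were higher and 48 lower than in steady 900, against 9.47% and 8.83% of all genes, with a median of −0.92, against 0.02, and 44 passed under every alternative. Rrm2 was at −2.41 ± 0.13, Cdc6 at −2.24 ± 0.12, Mcm5 at −2.21 ± 0.14 and Ccne2 at −2.11 ± 0.13. Uhrf1 was at −1.95 ± 0.09, Pole at −1.66 ± 0.09, E2f1 at −1.49 ± 0.15 and Mcm6 at −1.46 ± 0.09. Pold3 (−0.26), Gins3 (−0.14) and Pola2 (−0.05) did not pass. Fibroblast markers had list means of 7.74 at 48 h of 600 mosmol/kg and 8.28 in steady 600, and 7.57 at 24 h of 900 mosmol/kg and 6.74 in steady 900. In the same order leukocyte markers had 7.02 and 7.06, and 5.73 and 6.42, and collecting duct markers 6.29 and 8.01, and 8.52 and 8.82. The part of these cells in the result was not tested.

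Other cell cycle genes were taken from lists outside the 51. Of 53 further replication genes, 39 were measured, and of 23 mitosis genes 20. In returned cells relative to steady 900, 29 of the 39 rose and 1 fell (median 0.49), against 19.3% of all genes higher and 18.5% lower. Pclaf, a PCNA-binding protein (1.64 ± 0.21), the remodeller gene Hells (1.42 ± 0.13) and cyclin A2, Ccna2 (1.40 ± 0.13), led the increase. All 20 mitosis genes rose (median 1.5), against the same 19.3% of all genes. They were led by Aurkb (2.08 ± 0.11), a kinase of chromosome segregation, the mitotic kinase Cdk1 (1.84 ± 0.18) and cyclin B1, Ccnb1 (1.82 ± 0.13). With 600 mosmol/kg, 17 mitosis genes fell and 0 rose at 3 h, 14 and 0 at 12 h, 20 and 0 at 24 h and 20 and 0 at 48 h, with medians of −0.50, −0.44, −1.11 and −1.48. Of all genes, 29.5%, 22.6%, 13.0% and 12.0% were lower at these times. The scale of the arrays bears on 3 and 12 h, and on 12 h of 900 mosmol/kg. At 12 h of 600 mosmol/kg the mitosis split was 1 higher and 9 lower after centring, 1 and 10 after quantile normalization and 0 and 13 after cyclic loess. Mitosis splits after rescaling are not given here for the other times. With 900 mosmol/kg 16 fell at 12 h and 17 at 24 h, with 0 higher, against 25.3% and 14.7% of all genes lower. Between the steady cultures 8 of 20 mitosis genes were lower and 0 higher in steady 600 than in steady 300, and 19 were higher and 0 lower in steady 900 than in steady 600, against 13.4% of all genes lower and 11.3% higher.

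Of 21 genes for G1 cyclins, CDK inhibitors and related regulators, 16 were measured. In returned cells relative to steady 900, 8 rose and 4 fell, against 19.3% and 18.5% of all genes. Cdkn2a rose by 1.10 ± 0.14, Cdkn1a by 0.92 ± 0.09 and Cdkn2c by 0.86 ± 0.15, all CDK inhibitors, while the inhibitor gene Cdkn1c fell by 1.58 ± 0.09 and the pocket protein gene Rbl2 by 1.22 ± 0.10. At 24 h of 600 mosmol/kg 2 rose and 5 fell relative to steady 300, against 9.4% and 13.0% of all genes, and cyclin D2, Ccnd2, changed by −1.18 ± 0.12 and cyclin D1, Ccnd1, by −0.72 ± 0.08. Of 4 genes that supply nucleotides outside S phase, 3 were measured, and at 12 h of 600 mosmol/kg all 3 fell: Tk2 by 0.82 ± 0.11, Rrm2b by 0.51 ± 0.12 and Dguok by 0.48 ± 0.09, against 22.6% of all genes lower. All 3 also fell at 12 h of 900 mosmol/kg, against 25.3% of all genes, and none passed at 24 h of it. The scale of the arrays bears on both 12 h times, and these calls are not given after rescaling here. Rrm2b and Dguok rose in steady 600 (0.55 and 0.52) and in steady 900 (0.78 and 0.61) relative to steady 300, while Tk2 did not pass there.

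**Figure D4:**
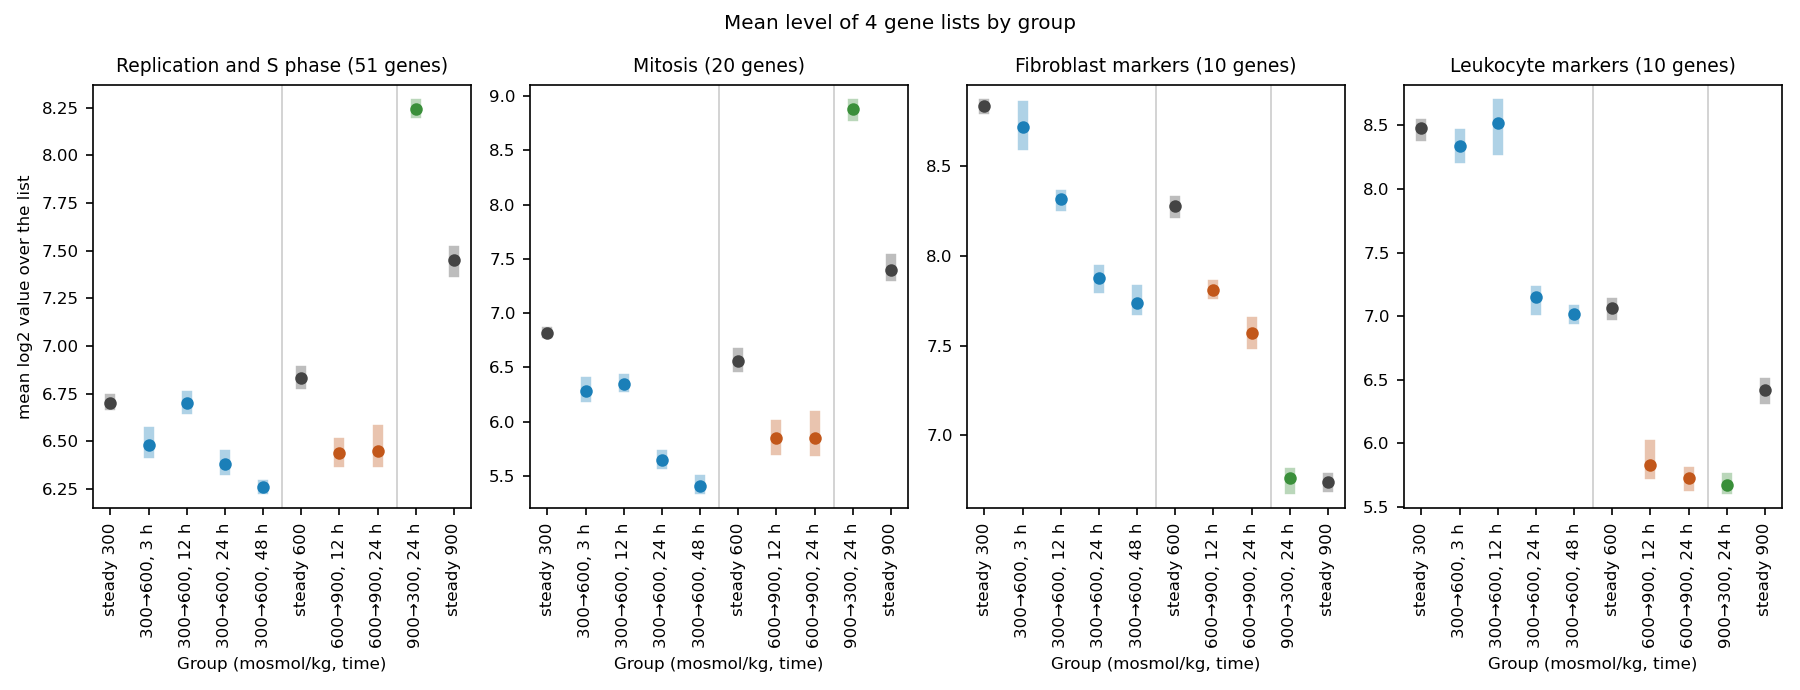
Mean log2 value (vertical axis) of the 51 replication and S phase genes, 20 mitosis genes, 10 fibroblast markers and 10 leukocyte markers, by group (horizontal axis, osmolality in mosmol/kg and time). Points are group means and bars run from the lowest to the highest array. Returned cells stand highest for replication (8.24) and mitosis (8.88), while fibroblast markers are near their lowest there (6.76), close to steady 900 (6.74).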

How the data were processed

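Total RNA was hybridised to 30 Affymetrix Rat Gene 1.0 ST arrays, 1 per sample. The values deposited by the authors are log2 expression from RMA, a method that corrects background, scales arrays to each other and summarises probes, per the submitters' processing notes. For its version and settings, nothing is stated in the labels. Of 29170 probe sets, 15310 carried 1 gene symbol, 323 several and 13537 none, which gave 14506 genes after keeping the probe set of highest mean.

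Groups came from the sample titles. A limma model (version 3.58.1, R 4.3.3) with a mean for each group was fitted to the 30 arrays and moderated with eBayes, and a gene was called at a Benjamini-Hochberg adjusted p under 0.05 over all 14506 genes. Changes are given ± standard error (SE), n = 3 arrays per group, a number that limits the precision. The fit was tested on simulated data. Alternatives were quantile normalization, median centring, cyclic loess, eBayes with trend and robust settings, a filter on dim genes (30th percentile), averaging all probe sets of a gene, the replicate number as a block, a fit of the compared arrays alone, and leaving out each array. Same-numbered arrays were at most weakly alike: of 46 pairs of arrays, 5 had deviations correlated above 0.1 (range −0.099 to 0.238), and in 0 of 17 comparisons did all pairs exceed it. The same number was still the best match in every pair of steady 600 with steady 300, and of 48 h of 600 mosmol/kg with steady 600. In the other comparisons it was not the best match in every pair, so the check does not settle whether arrays were paired. The last 3 groups carry the numbers 1, 2 and 9 and the others 1, 2 and 3.

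The genes, the lists, the tests and the rule for named genes were chosen with earlier results of these data known. The rule gave values on every array for 23 measured genes of a fixed list, named the 8 largest increases and decreases among called genes in each comparison that involved a steady culture, gave every measured gene a value, and allowed up to 3 leading genes of each other list. Pola2, Prim1, Pold3 and Rpa2 were shown by array after their values had been seen. For the G1 cyclins, CDK inhibitors and related regulators in returned cells, more genes were named than the rule allowed. Promoter windows were RefSeq's for GRCr8 and were matched by symbol, and the array annotation's own build is not stated.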

Additional observations from a re-analysis of the deposited data

Results flagged for a closer look

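The change after 12 h of 900 mosmol/kg (relative to steady 600) differed from the change after 12 h of 600 mosmol/kg (relative to steady 300) in 18 genes. This was limma's test of the difference itself, and each difference was negative. Of all genes, 7.25% had a negative difference that passed and 6.18% a positive one. Most leukocyte markers were also negative in this test, and their part was not tested. In the MCM group it was −1.16 for Mcm10, −1.05 for Mcm5, −0.90 for Mcm6, −0.74 for Mcm7 and −0.45 for Mcm2. Among the nucleotide genes it was −1.23 for Tyms, −0.77 for Rrm1 and −0.69 for Rrm2. For the polymerases it was −0.79 for Pola1, −0.65 for Pole and −0.35 for Prim2, and at the fork −1.12 for Pcna, −0.52 for Rpa1 and −0.43 for Rfc2. The remaining genes were Cdc6 (−0.81), Gins4 (−0.66), Brca2 (−0.56) and Uhrf1 (−0.52). Of the 18 calls, 16 passed under every alternative. That of Rfc2, for example, was lost without 12 h replicate 1 of 900 mosmol/kg (−0.35, adjusted p = 0.058).

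At 24 h the same test passed in 5 genes. Rrm2 differed by 0.83, while Pole differed by −0.59, Mcm7 by −0.54, Pola1 by −0.49 and Tyms by −0.36. Under every alternative the positive difference of Rrm2 passed, and of the 4 negative ones only 1, that of Pole. Mcm7, Pola1 and Tyms were each lost under some alternative. Mcm7, for example, missed the threshold without steady 300 replicate 3 (−0.47, adjusted p = 0.0529) or 24 h replicate 2 of 900 mosmol/kg (−0.42, adjusted p = 0.0653). No explanation of these differences was tested.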

How the results depend on the processing

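Of 541 calls over all genes of the set and comparisons, 111 were lost under at least 1 alternative and 105 of 428 uncalled values gained a call. The losses were 42 after median centring, 32 after quantile normalization, 22 after cyclic loess, 30 with only the compared arrays, 6 with trend and robust eBayes, 1 with the mean of probe sets, 0 of 499 with the filter on dim genes and 98 on leaving out 1 array. With the replicate number as a block, a pairing that the check did not settle, 8 calls were lost and 19 gained. The counts of calls that moved by over 1.5 times were these. At 12 h of 600 mosmol/kg relative to steady 300 the count was 25 after median centring, against 16 as reported. From 24 to 48 h it was 4 after centring and 5 with only the compared arrays, against 2, and 1 on leaving out any array. From 12 to 24 h of 900 mosmol/kg it was 7 with only the compared arrays, against 14, and 9 to 12 on leaving out 1 array. For steady 600 relative to steady 300 it was 22 with only the compared arrays, against 13, and 8 to 13 on leaving out 1 array. For the difference of the steps at 24 h it was 2 to 6 on leaving out 1 array, against 5. The only called value to change sign was that of Rpa1 at 3 h, 0.01 after cyclic loess, against −0.22. The causes were not tested, and leaving out an array changes both which arrays are fitted and how many. Signal over background was not analysed here.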
